A study of Zea mays with 9 samples.

Results

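The transcriptome of maize roots supplied with a protein hydrolysate (Bio) was compared with that of roots supplied with a mixture of free amino acids (Aa). The members of the comparison are the 3 arrays of Bio-treated roots and the 3 arrays of Aa-treated roots, chosen by their sample labels, which make 6 of the 9 arrays of the series. All 39372 transcripts on the array were described, 1 probe for each transcript of the maize B73 release 5b. In the Bio treatment, seedlings of the maize hybrid P0423 grew for 3 days in a diluted nutrient solution with a protein hydrolysate from the company SICIT2000. In the Aa treatment the same solution held free amino acids in the proportions of the hydrolysate. The 3 remaining arrays, from roots supplied with NH4H2PO4 (N), entered the fit and are given as a reference for levels. Total N was 11.3 mg per litre in all 3 treatments, the labels give the seedlings an age of 4 days, and each array held RNA pooled from the roots of 24 seedlings. The experiment was run 3 times, so that replicates are separate pools of 1 hybrid, and pools hide the variation between single plants.

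Protein hydrolysates are mixtures of peptides and amino acids obtained by breaking down proteins, and they are sold as biostimulants of plant growth. Roots take up amino acids and short peptides through separate families of transporters, with the PTR and oligopeptide carriers serving the peptides. Grasses acquire iron by releasing phytosiderophores, chelators made from nicotianamine, and by importing the complex of iron and phytosiderophore, a system called Strategy II. Photosynthesis genes are active mainly in green tissue, although roots kept in light can express some of them.

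A level is the log2 intensity of a spot minus the log2 of its array's 75th percentile, so that 0 is the level at this percentile. They can be compared between arrays for 1 transcript, not between transcripts. Each of the 3 slides carried 1 Bio, 1 Aa and 1 N array of the same replicate number, always with Bio at position 3, Aa at position 2 and N at position 1. An effect of position cannot be told apart from one of treatment. On the Bio arrays 27019, 30620 and 30962 transcripts were well above background by the criterion of the scanner software, and on the Aa arrays 31014, 30628 and 31277. The means, 29534 for Bio and 30973 for Aa, gave p = 0.2 in a two-sided exact permutation test, the smallest possible value being 0.1. The 75th percentile of the intensities averaged 636 units on the Bio arrays and 748 on the Aa arrays, without overlap, which gave this smallest p of 0.1. The Bio array of slide 1 had the fewest transcripts well above background and the highest detection limit, at a level of -5.09, against limits of -6.03 and -6.10 on the other Bio arrays and of -6.37 to -6.19 on the Aa arrays. On every slide the Bio array correlated more closely with the Aa array of its own slide than with either other Bio array. Over the transcripts well above background on all 6 arrays, r was 0.97 on slide 1, against 0.95 and 0.96 with the other Bio arrays. On slide 2 it was 0.957, against 0.952 and 0.949, and on slide 3 it was 0.99, against 0.96 and 0.95. The Bio array of slide 2 correlated most with the Aa array of slide 1 (0.970). The 3 Casparian strip proteins of the list used as root markers were well above background on all 6 arrays.

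Limma called 0 transcripts, with the Benjamini-Hochberg adjusted p limited to 0.01 and the fold change to 2 or more, out of the 38619 for which Bio vs. Aa could be tested (0% in each direction). Limma's smallest adjusted p was 0.650, and every difference described here therefore fell short of the threshold and is given as a measured value. At an unadjusted p below 0.05 there were 1651 transcripts with higher levels in Bio-treated roots (4.28% of those tested) and 1303 with lower levels (3.37%). After quantile normalization these numbers were 1371 and 1797, so that the excess in the direction of Bio depended on the scaling. The other 753 transcripts had too few spots left after removal of those marked as outliers by the scanner software.

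Most transcripts with a signal well above background differed by less than 2-fold between the organic N sources. A signal well above background on each of the 6 arrays was found for 26565 transcripts, of which 25812 were tested, and in 97.5% of these the log2 fold change was under 1 in size. Differences had a median size of 0.20 on the log2 scale, close to the median standard error of 0.21. In this set 369 transcripts had levels at least 2-fold higher and 283 at least 2-fold lower in Bio-treated roots. The excess of positive differences lay in the dim probes. In the dimmest of 4 equal parts of these transcripts 115 were at least 2-fold higher and 31 at least 2-fold lower in Bio, whereas in the brightest part the numbers were 86 and 114. Of the 6122 transcripts that were well above background on none of the 6 arrays, 223 were at least 2-fold higher and 2 at least 2-fold lower, and their median difference was 1.26 on slide 1, against 0.05 on slide 2 and 0.18 on slide 3. The detection limit of the Bio array on slide 1 was also the highest, and its part in these differences was not tested.

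The difference between Bio and Aa was not of the same size on the 3 slides. Among the transcripts well above background on all 6 arrays, the within-slide difference had an SD of 0.60 on slide 1, 0.69 on slide 2 and 0.39 on slide 3. On slide 1, 1132 transcripts were at least 2-fold higher and 1005 at least 2-fold lower in Bio, on slide 2 these were 1532 and 1300, and on slide 3 only 349 and 153. Across these transcripts, which are not independent replicates, the differences of slides 1 and 2 correlated with r = 0.17, those of slides 1 and 3 with 0.16 and those of slides 2 and 3 with 0.14. A difference in the same direction on all 3 slides was found for 8554 transcripts higher in Bio (21.7% of the array) and 5799 lower (14.7%), whereas among those well above background on all 6 arrays the numbers were nearly equal, 4847 and 4694. Arrays that did not overlap between the treatments were found for 3519 transcripts higher in Bio (8.94%) and 1471 lower (3.74%). A difference of at least 2-fold on every slide was met by 87 transcripts higher in Bio (0.221%) and 42 lower (0.107%), of which 19 and 16 were detected well above background on each of the 6 arrays. The direction of this excess turned with the scaling, since quantile normalization gave 34 higher and 62 lower and normexp background correction 0 and 14.

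**Figure D1:**
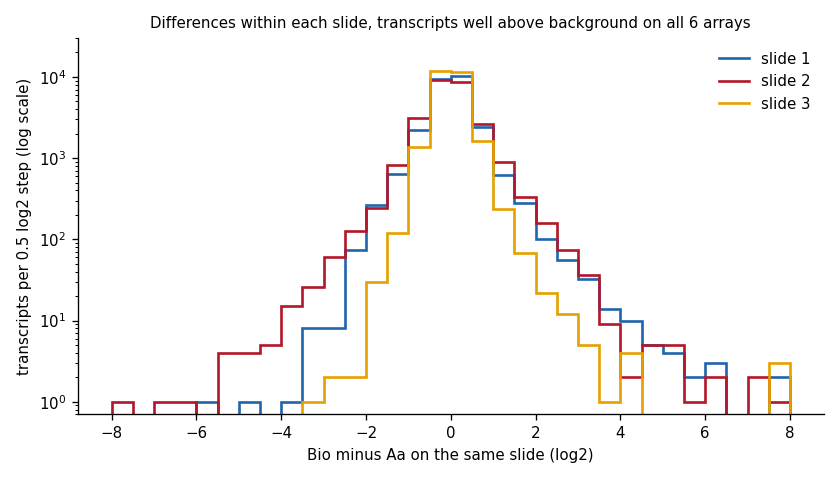
Number of transcripts (log scale) in steps of 0.5 of the difference Bio minus Aa (log2) within each of the 3 slides, for the 26565 transcripts well above background on all 6 arrays, with differences beyond the axis counted in the outermost steps. The line of slide 3 is the narrowest (SD 0.39), and those of slides 1 and 2 are wider (0.60 and 0.69).

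Iron acquisition had the lowest median difference of all lists. The list of Strategy II genes with a RefSeq name holds 9 transcripts, of which 8 were well above background on all 6 arrays. Its median log2 fold change of Bio vs. Aa was -1.52, beside 0.05 for all transcripts, and 4 of the 9 were lower in Bio at an unadjusted p below 0.05 (3.37% of all tested) and none higher. The summed level of the 9, in units of the 75th percentile, was 45.5, 35.6 and 146 on the Bio arrays, against 140, 244 and 170 on the Aa arrays and 22.8, 12.4 and 48.8 on the N arrays. Slide 3 thus held nearly equal sums in Bio and Aa, and the median difference of the list was -1.33 on slide 1, -2.82 on slide 2 and -0.22 on slide 3. The arrays of slide 2 weighed most: without the Aa array of this slide the median was -0.77, without the Bio array -0.84 and without the whole slide -0.49. Under normexp background correction the median, relative to that of all transcripts, was -0.71.

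Phytosiderophore synthesis begins with nicotianamine synthase, which joins 3 molecules of S-adenosylmethionine. The level of nas1 (GRMZM2G385200) was 5.17, 4.63 and 6.85 in Bio-treated roots, against 6.78, 7.45 and 6.99 in Aa-treated roots and 3.70, 2.47 and 5.28 in N-treated roots. The Bio array of slide 3 lay within the range of the Aa arrays, the other Bio arrays below it, and the log2 fold change was -1.52 (SE 0.59). For nas2 (GRMZM2G030036) the levels were -3.76, -4.32 and -0.58 in Bio, against -1.04, 0.62 and 0.06 in Aa. Here again only the Bio array of slide 3 reached the Aa arrays, and the log2 fold change was -2.76 (SE 0.79, limma adjusted p = 0.650). The study's tables describe 4 further transcripts as nicotianamine synthases, chosen there on these same arrays. Among them GRMZM2G124785 had levels of -0.09, -0.34 and 2.85 in Bio, against 2.35, 4.06 and 3.28 in Aa, and AC233955.1_FGT003 had 2.82, 2.12 and 5.22, against 4.84, 5.63 and 5.55. The remaining pair, GRMZM2G312481 and GRMZM2G034956, differed by -1.46 and -2.31. Maize nicotianamine synthase genes are close copies, so that their probes may share signal and the single members are uncertain.

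The next enzymes of the pathway had the same order of arrays. Nicotianamine aminotransferase, ZmNAAT1 (GRMZM2G096958), which converts nicotianamine to the keto acid, had levels of -4.30, -4.70 and -2.59 in Bio and -2.59, -1.57 and -2.38 in Aa. Its log2 fold change was -1.68 (SE 0.71). Deoxymugineic acid synthase, ZmDMAS1 (GRMZM2G060952), which makes the phytosiderophore itself, had levels of 0.50, -0.12 and 2.04 in Bio and 1.84, 3.22 and 2.58 in Aa, with a log2 fold change of -1.74 (SE 0.50). In both the Bio array of slide 3 overlapped the Aa arrays, and the Bio arrays of slides 1 and 2 lay below all of them.

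The transporters of the pathway were divided. ZmTOM1 (GRMZM2G063306), whose rice counterpart exports deoxymugineic acid and which was not on the list, had levels of -1.41, -1.71 and 2.25 in Bio, against 2.08, 3.19 and 2.65 in Aa. Its log2 fold change of -2.93 (SE 0.78) came from slides 1 and 2, at -3.49 and -4.90, while slide 3 gave -0.40. The importer of the iron complex, ys1 (GRMZM2G156599), had levels of 2.48, 2.53 and 4.46 in Bio and 4.54, 5.80 and 4.95 in Aa, which did not overlap, and a log2 fold change of -1.87 (SE 0.63). Of the other yellow stripe-like transporters, ysl11, ysl12 and ysl14A differed by -0.21, 0.07 and 0.51, and ysl17 was well above background on none of the 6 arrays. The first 2 had the opposite sign without the Bio array of slide 2, at 0.012 and -0.21. GRMZM2G135291, described in the study's tables as an iron-phytosiderophore transporter, differed by -1.32.

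**Figure D2:**
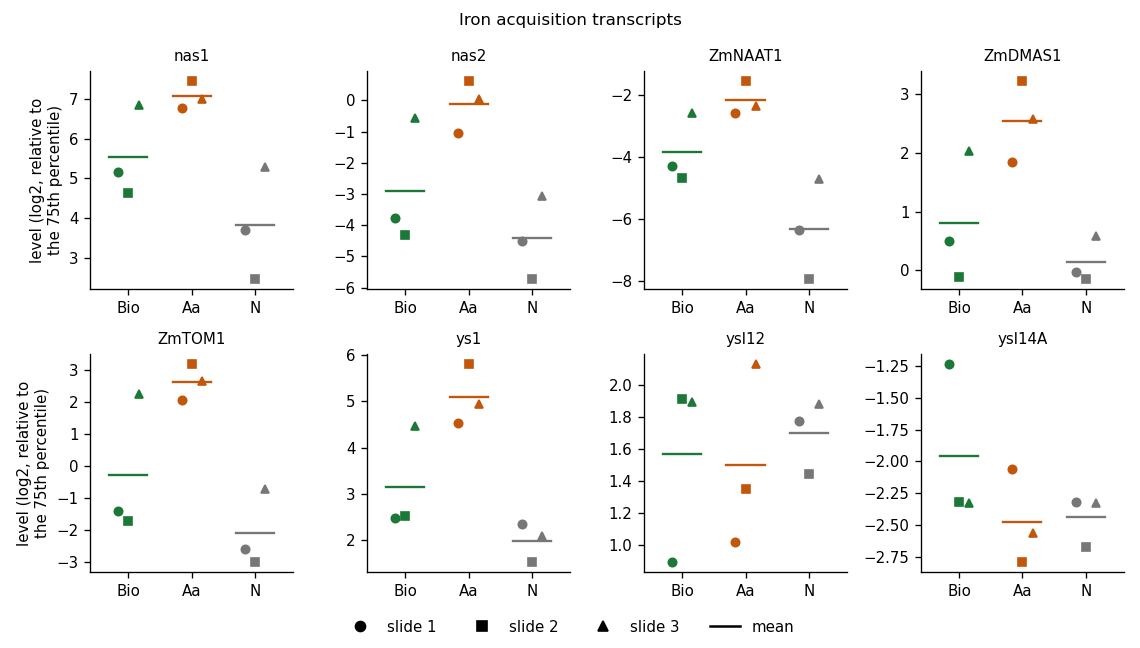
Levels (log2 relative to the 75th percentile of the array) of 8 iron acquisition transcripts in Bio-, Aa- and N-treated roots, with 1 symbol per slide and a line at the mean of the 3 arrays. For nas2, the Bio arrays of slides 1 and 2 stand at -3.76 and -4.32, below all Aa arrays, and that of slide 3 stands at -0.58.

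Formate dehydrogenase, a mitochondrial enzyme that oxidizes formate and is known from barley to accumulate in iron-deficient roots, appeared 3 times among the 15 largest negative differences. GRMZM2G124919 had levels of 2.55, 2.56 and 4.25 in Bio, against 4.54, 5.80 and 4.96 in Aa and 2.34, 2.14 and 3.16 in N. The arrays of Bio and Aa did not overlap, and the log2 fold change was -1.98 (SE 0.52). The other transcripts with this description, GRMZM2G049811 and GRMZM2G418005, differed by -1.76 and -1.74. On slide 3 the 3 differences were -0.72, -0.30 and -0.43. The same group of negative differences held a plasma membrane ATPase (GRMZM2G131309), the proton pump that energizes transport, at -1.96, with levels of -4.17, -4.29 and -2.10 in Bio and -1.96, -0.64 and -2.08 in Aa. It also held ribose-phosphate pyrophosphokinase 4, which makes the sugar phosphate for nucleotide synthesis, at -1.66, and inositol-3-phosphate synthase, the first step of inositol synthesis, at -1.69.

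Among described transcripts without marked spots and well above background on all 6 arrays, the largest negative difference was that of a peroxidase (GRMZM2G138450), a family of secreted enzymes that act on phenolics and hydrogen peroxide in the cell wall. Its levels were -2.21, 0.00 and 5.06 in Bio-treated roots, against 3.43, 6.83 and 6.20 in Aa-treated roots and 0.05, 1.92 and 1.72 in N-treated roots. The Bio array was lower on every slide, with differences of -5.64, -6.83 and -1.13, and the log2 fold change was -4.53 (SE 1.19, limma adjusted p = 0.650). The 7 peroxidases with a RefSeq name differed far less, with a median of -0.36. Of these, 5 were lower in Bio on all 3 slides (14.7% of all transcripts), none was higher on all 3, and PRX66 had the largest difference at -1.01 (SE 0.42). Another 18, GRMZM2G138450 among them, are described as peroxidases only in the study's tables and were chosen there on these arrays. Their median was -0.78 over the 16 tested, with 5 lower and 0 higher at an unadjusted p below 0.05 (3.37% and 4.28% of all tested). MFS18 (GRMZM2G105587), described as a protein of the maize male flower, had levels of -2.25, -2.86 and -0.55 in Bio and -0.87, 0.95 and 1.48 in Aa, with a log2 fold change of -2.40 (SE 0.53).

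The photosynthetic apparatus had the highest median difference of all lists. The list of light harvesting and carbon fixation genes with a RefSeq name holds 16 transcripts, which mark green tissue. Only 4 of these were well above background on each of the 6 arrays, and rca3 and an ssu1 transcript were so on none. Its median log2 fold change was 1.56, beside 0.05 for all transcripts, and 11 of the 16 were higher in Bio at an unadjusted p below 0.05 (4.28% of all tested) and none lower. Dim probes as a class were also higher in Bio. The 6122 transcripts well above background on none of the 6 arrays had a median of 0.48, and of 1.26 on slide 1. Of these 367 were higher and 29 lower at an unadjusted limma p below 0.05. The summed level of the 16 was 19.7, 6.46 and 2.96 on the Bio arrays, against 0.88, 1.26 and 2.75 on the Aa arrays and 1.1, 1.95 and 4.04 on the N arrays. On slide 3 Bio and Aa therefore differed little, and the median difference was 2.59 on slide 1, 2.21 on slide 2 and 0.08 on slide 3. Without the Bio array of slide 1 the median was 1.03. With the 25 transcripts that carry such a description only in the study's tables, and which the study chose on these arrays, the list had 41 members. Of these 40 were tested, 30 were higher at an unadjusted p below 0.05 and none was lower. The normexp background correction, which compresses dim probes, gave a median of 0.20 for the 16, relative to that of all transcripts. The part of green tissue in the root samples in these differences was not tested.

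Antenna proteins bind chlorophyll and pass light energy to the photosystems. The transcript of lhcb6 (GRMZM2G092427), an antenna protein of photosystem II, had levels of 4.03, 2.17 and 1.08 in Bio-treated roots, against -1.11, -0.11 and 0.91 in Aa-treated roots and -0.63, 0.34 and 1.69 in N-treated roots. All Bio arrays lay above all Aa arrays, and the log2 fold change was 2.53 (SE 0.98). Another antenna transcript, AC208915.3_FGT010 (chlorophyll a-b binding protein 2), had levels of 5.84, 4.34 and 3.42 in Bio and 1.69, 2.19 and 3.03 in Aa, again without overlap, at 2.23 (SE 0.72). The antenna transcript lhcb5 (GRMZM2G149428) was well above background on all 3 Bio arrays and on none of the 3 Aa arrays. Its levels were -2.84, -4.97 and -5.42 in Bio and -6.63, -8.44 and -6.27 in Aa. By the means of the arrays it was at least 3.65-fold higher in Bio, but on slide 3 the difference was 0.85. In contrast lhcb3, with levels of -2.61, -2.42 and -3.11 in Bio and -2.86, -3.03 and -3.03 in Aa, differed by 0.26 (SE 0.20).

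Within the photosystems the pattern of slides was the same. The transcript of psbs1 (GRMZM2G077333), a protein of photosystem II that dissipates excess light energy, had levels of -0.45, -1.41 and -3.62 in Bio and -8.09, -7.98 and -3.50 in Aa. The differences were 7.64 and 6.57 on slides 1 and 2 and -0.11 on slide 3. The photosystem I subunit psan1 (GRMZM2G080107) had levels of 0.02, -1.97 and -2.86 in Bio and -7.12, -6.35 and -3.19 in Aa, with a log2 fold change of 3.95 (SE 1.17). Both were well above background on 3 Bio arrays and on 1 Aa array, that of slide 3, so that their folds on slides 1 and 2 run against values near the detection limit. Further members with a description were the photosystem II W protein (AC190623.3_FGT001) at 2.06 and the beta subunit of cytochrome b559, part of the photosystem II core, at 1.56.

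Enzymes of carbon fixation followed. Rubisco activase, rca1 (GRMZM2G162200), which keeps Rubisco in its active form, had levels of -1.29, -3.37 and -4.07 in Bio and -6.86, -6.92 and -4.02 in Aa. The measured log2 fold change was 3.02 (SE 1.05), but on slides 1 and 2 the Aa arrays were not well above background. A small subunit of Rubisco, rbcS (GRMZM2G113033), had -1.62, -0.66 and -3.23 in Bio and -5.96, -4.64 and -2.57 in Aa, so that on slide 3 the Bio array was the lower one. Fructose-1,6-bisphosphatase (GRMZM2G306732), an enzyme of the Calvin cycle and of sucrose synthesis, had levels of -2.05, -1.39 and -2.55 in Bio and -4.62, -4.07 and -2.80 in Aa, which did not overlap, at 1.83 (SE 0.48). CP12-1, a small protein that binds Calvin cycle enzymes, differed by 1.68.

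**Figure D3:**
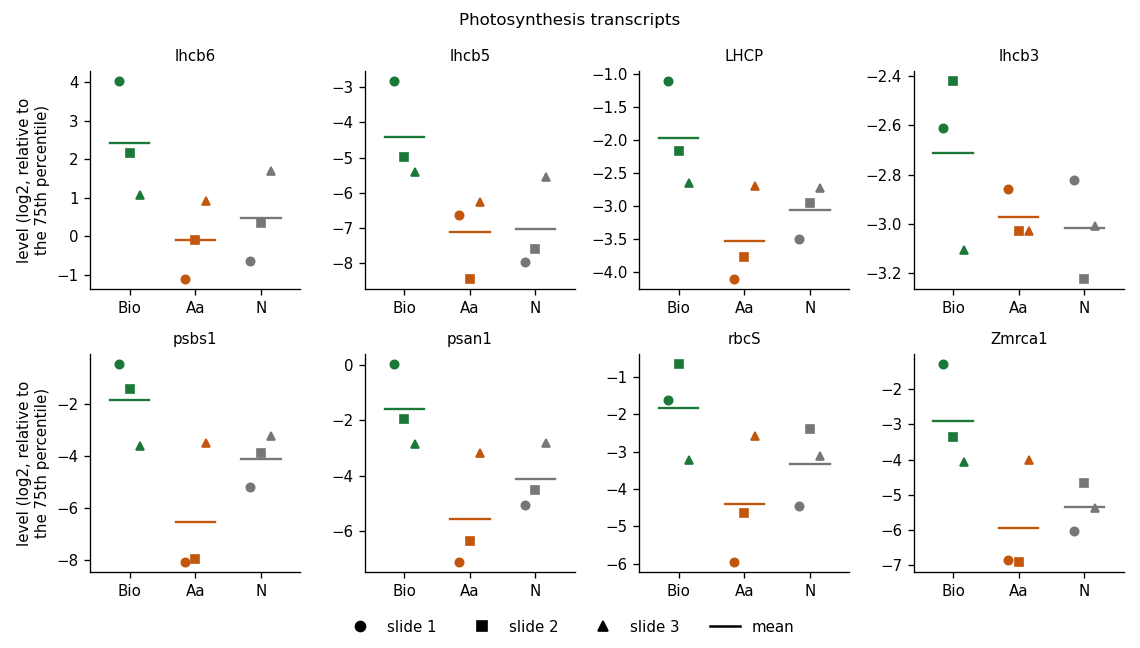
Levels (log2 relative to the 75th percentile of the array) of 8 photosynthesis transcripts in Bio-, Aa- and N-treated roots, with 1 symbol per slide and a line at the mean of the 3 arrays. For psbs1 the Bio and Aa arrays stand 7.64 apart on slide 1 and at -3.62 and -3.50 on slide 3.

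The 30 largest differences with a name or description, 15 in each direction, were taken from 1655 transcripts that were unmarked and exceeded the background clearly on all 6 arrays, had the same sign on the 3 slides and an unadjusted p below 0.05. Of these 1655, 855 were higher and 800 lower in Bio, but only 257 carried a name or a description. In 28 of the 30 the smallest of the 3 slide differences was that of slide 3. In 11 of the 15 positive differences slide 1 gave the largest value, and in 14 of the 15 negative ones slide 2 did. All 30 were at least 2-fold apart on slide 1, 29 on slide 2 and 5 on slide 3. A place in a list of the study was held by 26 of the 30, which follows in part from the descriptions, since 976 transcripts have theirs from the study's tables.

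**Figure D4:**
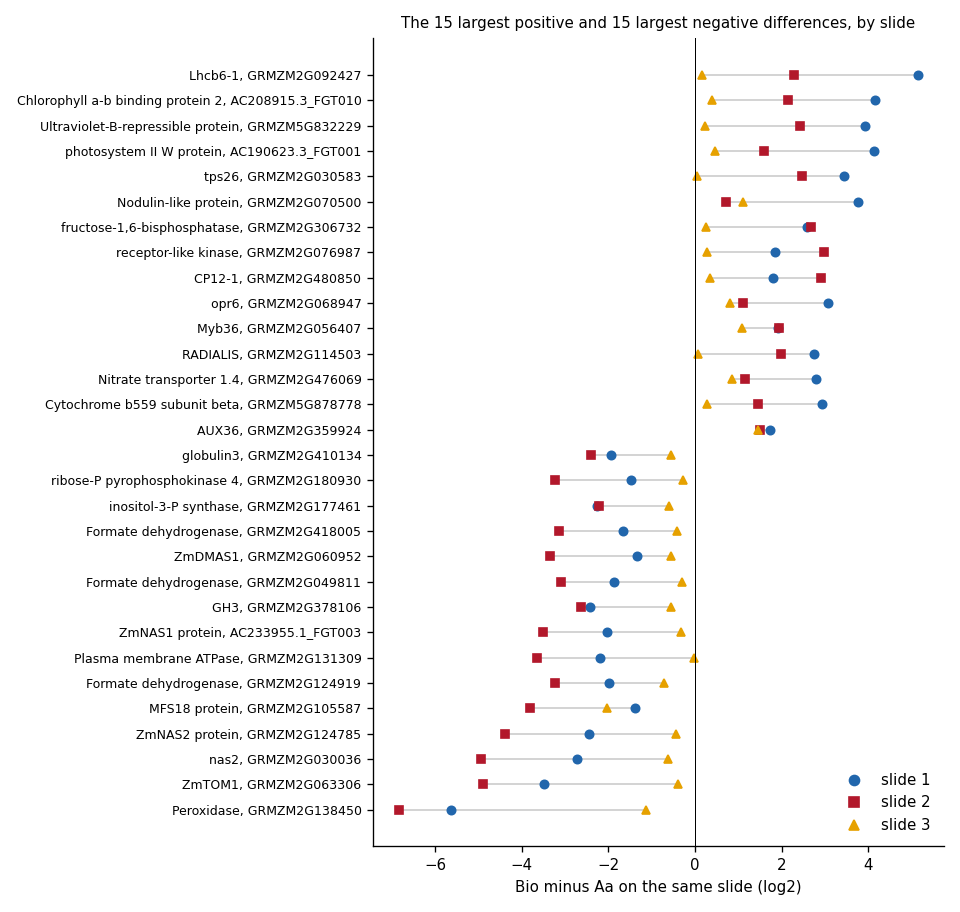
Difference Bio minus Aa (log2) on each of the 3 slides for the 15 largest positive and 15 largest negative differences of transcripts with a name or description, ordered by the log2 fold change of the fit. Slide 3 gives the smallest difference in 28 of the 30, and AUX36 (1.72, 1.49 and 1.45) is among the few with nearly equal values.

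AUX36 (GRMZM2G359924), a member of the auxin list by its name, had the most even difference of these 30. Its levels were 1.06, 0.10 and -0.13 in Bio-treated roots, against -0.67, -1.39 and -1.59 in Aa-treated roots and -0.49, -1.58 and -0.94 in N-treated roots. The Bio arrays lay above the Aa arrays on every slide without overlap, and the log2 fold change was 1.56 (SE 0.22, limma adjusted p = 0.650). The opposite direction was found for a GH3 transcript (GRMZM2G378106), a family of enzymes that join auxin or jasmonate to amino acids. Its levels were -4.10, -2.95 and -1.61 in Bio and -1.69, -0.30 and -1.06 in Aa, at -1.87 (SE 0.58). The other 2 of the 4 largest differences of the list, AUX5 and an AUX9 transcript, were each well above background on only some arrays. Auxin efflux carriers of the PIN family, named here after their values were seen, differed by 0.76 for PIN5a and by -0.53 for PIN1a. Over the 62 auxin transcripts with a RefSeq name the median was 0.12, 7 were higher and 2 lower at an unadjusted p below 0.05 (4.28% and 3.37% of all tested), and 24 were higher and 10 lower on all 3 slides (21.7% and 14.7% of all transcripts).

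Among transcription factors, Myb36 (GRMZM2G056407) had levels of -2.44, -3.54 and -2.87 in Bio-treated roots, against -4.35, -5.48 and -3.94 in Aa-treated roots, without overlap. Its log2 fold change was 1.64 (SE 0.52), and the N arrays, at -3.16, -1.91 and -2.79, lay near those of Bio. MYB100 was similar, with levels of -4.01, -4.44 and -4.05 in Bio and -6.30, -5.59 and -5.22 in Aa, at 1.53 (SE 0.37), and was well above background on 2 of the Aa arrays. MYB63 differed by -1.52 and was well above background on no Bio array. In the 64 MYB transcripts with a RefSeq name the median was 0.16, with 4 higher and 1 lower at an unadjusted p below 0.05, close to the 4.28% and 3.37% of all tested. Other families stood closer to 0, with medians of 0.11 for 46 bHLH, 0.11 for 37 AP2/ERF, 0.09 for 20 WRKY, 0.09 for 10 LOB domain and -0.01 for 31 NAC transcripts. Within these, LOB21 (GRMZM2G092483), of the family of lateral organ boundaries proteins, had levels of 0.64, 2.05 and 1.33 in Bio and 2.21, 2.92 and 2.24 in Aa, at -1.12 (SE 0.31). RADIALIS (GRMZM2G114503), named after a floral symmetry gene of snapdragon, had 1.14, 0.49 and 0.00 in Bio and -1.61, -1.49 and -0.06 in Aa, at 1.59 (SE 0.52). A TCP factor (GRMZM2G060319) differed by 1.73 but was well above background on 1 Bio array only.

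Enzymes of oxylipin synthesis, the pathway to jasmonate, stood in both directions. The transcript of opr6 (GRMZM2G068947), of the family of oxophytodienoate reductases, had levels of 1.62, -1.50 and -0.14 in Bio-treated roots, against -1.45, -2.60 and -0.95 in Aa-treated roots, which overlapped, although the Bio array was higher on every slide. Its log2 fold change was 1.66 (SE 0.51). The lipoxygenase transcript lox5 (GRMZM2G102760), which starts the pathway and was named after its values were seen, had 5.35, 4.31 and 4.35 in Bio and 4.20, 3.10 and 2.65 in Aa. It was more than 2-fold higher in Bio on each slide, with 4 of the 6 spots marked as outliers. A jasmonic acid carboxyl methyltransferase (GRMZM2G033126), which makes the volatile methyl jasmonate and was chosen in the same way, was more than 2-fold lower on each slide, with levels of -1.99, -1.38 and -0.58 in Bio and -0.58, 0.01 and 0.51 in Aa. Its log2 fold change was -1.29 (SE 0.30). The terpene synthase tps26 (GRMZM2G030583) had levels of -0.05, -1.87 and -2.87 in Bio and -3.48, -4.34 and -2.92 in Aa, at 1.98 (SE 0.68).

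Further transcripts at least 2-fold apart on every slide, all named after their values were seen, came from several functions. A beta-glucosidase (GRMZM2G031628), an enzyme that releases glucose from glycosides, had levels of 1.22, 0.72 and 0.17 in Bio and 0.15, -0.92 and -1.17 in Aa, at 1.35 (SE 0.35). A WAT1-related transcript (GRMZM2G136567), whose founding member in Arabidopsis moves auxin across the tonoplast, had 2.65, 1.34 and 1.56 in Bio and 0.48, -1.26 and 0.36 in Aa. Its 3 slide differences were 2.17, 2.6 and 1.20, with 2 marked spots. The photosystem I subunit psaK had slide differences of 4.34, 1.98 and 1.52 and was well above background on 3 Bio arrays and 1 Aa array. In the other direction, the transcript of a cell wall invertase (GRMZM2G119689), which splits sucrose outside the cell, had levels of -6.60, -5.07 and -4.45 in Bio and -4.12, -3.0 and -2.75 in Aa. Bio and Aa arrays did not overlap, and the measured log2 fold change was -2.09 (SE 0.45), with the Bio array of slide 1 not well above background. The smallest unadjusted limma p of the whole array, 6.29e-05, belonged to expansin-A22 (GRMZM2G469701), of a family that loosens cell walls. Its levels were -7.09, -6.91 and -5.88 in Bio and -5.71, -4.84 and -4.18 in Aa, at -1.72 (SE 0.18, adjusted p = 0.650), and it was well above background on 1 Bio array and 3 Aa arrays.

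Transporters of nitrogen compounds, the nutrient whose form differed between the treatments, were few among these. A transcript described as nitrate transporter 1.4 (GRMZM2G476069) had levels of -1.59, -2.50 and -2.14 in Bio-treated roots, against -4.38, -3.64 and -2.98 in Aa-treated roots, without overlap, at 1.59 (SE 0.50). An oligopeptide transporter (GRMZM2G057611) had levels of -2.60, -3.68 and -3.26 in Bio and -4.92, -5.11 and -4.04 in Aa, at 1.51 (SE 0.38), also without overlap. The study had chosen both from these same arrays. Of peptide transport, 3 transcripts had a RefSeq name, with a median of 0.13 and with 1 higher and 0 lower at an unadjusted p below 0.05 (4.28% and 3.37% of all tested). The other 8, described in the study's tables and chosen there on these arrays, had a median of 0.19, with 3 higher and 0 lower. PTR2 transcripts ran both ways, with GRMZM2G026523 at 0.72 (SE 0.21) and GRMZM2G347457 at -0.48 (SE 0.23). GRMZM2G015767, which the study lists as lower in Bio than in Aa, differed by 1.15 here. Its signal was well above background on none of the 6 arrays. An ammonium transporter (GRMZM2G335218) had levels of -6.98, -5.41 and -5.58 in Bio and -5.08, -5.11 and -3.32 in Aa, at -1.48 (SE 0.47), with the Bio array of slide 1 not well above background. The high-affinity nitrate transporter nrt2.2 had -0.82, -0.12 and 2.94 in Bio and 0.36, 2.67 and 2.43 in Aa, at -1.16 (SE 0.61), with the opposite sign on slide 3.

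The enzymes that assimilate ammonium and nitrate differed in both directions, with 6 higher and 6 lower in Bio. Over the 13 transcripts of this list, 12 of them tested, the median was -0.01, and 0 were higher and 0 lower at an unadjusted p below 0.05. The largest differences were those of asn2, an asparagine synthetase, at 0.77 (SE 0.47), and of gln3, a cytosolic glutamine synthetase, at -0.69 (SE 0.56). Nitrite reductase (NIR) differed by -0.62, but by 0.13 without the Bio array of slide 1. The glutamine synthetase gln4, one of the list's highest signals, differed by 0.18, and by -0.044 without the Aa array of slide 2. In the 7 peptidases with a RefSeq name the median was -0.40, with 1 higher and 6 lower. Another 19, described only in the study's tables and chosen there on these arrays, had a median of 0.45, with 13 higher and 6 lower. Of the 7, mir1, a cysteine proteinase known in maize for defence against caterpillars, had levels of -6.80, -7.34 and -0.89 in Bio and -4.22, -0.99 and -1.01 in Aa. On slides 1 and 2 its Bio arrays were not well above background, and on slide 3 Bio and Aa were nearly equal.

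Of the transporters of other minerals, the phosphate transporter transcript pht9 (GRMZM2G070087) had levels of 1.0, 3.30 and 4.66 in Bio and 4.10, 6.43 and 5.94 in Aa, more than 2-fold lower on every slide, with 4 of the 6 spots marked as outliers. The fit, in which the marked spots were missing, gave -4.94 (SE 0.30), more than the difference on any slide (-3.10, -3.13 and -1.28). The potassium channel transcript AKT2/3 (GRMZM2G020859) had -0.01, -1.22 and -1.13 in Bio and -1.88, -2.23 and -1.97 in Aa, without overlap, at 1.24 (SE 0.28). Another potassium channel (AC234152.1_FGT007), which the study lists as lower in Bio than in Aa, differed by 1.19 (SE 0.24). It was well above background on 2 Bio and 2 Aa arrays. The phosphate transporter GRMZM2G139639, at 1.44, and the glutamate receptor GRMZM5G806774, at 1.16, were well above background on none of the 6 arrays. Over the 41 transcripts of phosphate, sulfate, potassium and zinc transport the median was 0.02. The aquaporins, channels for water and small solutes, had a median of -0.06 over 27 transcripts. One of the highest signals of this list, TIP2;2 of the vacuolar membrane, had levels of 6.27, 6.62 and 7.11 in Bio and 7.25, 7.80 and 7.70 in Aa, without overlap, at -0.84 (SE 0.26).

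Small but even negative differences were seen in the lists of growth and protein synthesis. Of 23 cyclin and DNA replication transcripts, 12 were lower in Bio on all 3 slides (14.7% of all transcripts) and 1 was higher, with a median of -0.19, and of -0.35 over the 19 well above background on all 6 arrays. MCM6, part of the helicase that opens DNA for replication, had levels of -1.18, -1.89 and -0.92 in Bio and -0.68, -0.87 and -0.62 in Aa, at -0.61 (SE 0.20). The origin recognition subunit orc1 differed by -0.40 (SE 0.16). Of 36 cytosolic ribosomal protein transcripts, 21 were lower on all 3 slides and 2 higher (14.7% and 21.7% of all transcripts). Their median was -0.19, with slide medians of -0.13, -0.21 and -0.25. For comparison, the brightest of 4 equal parts of the transcripts well above background on all 6 arrays had a median of -0.03. No member of these 2 lists had a 2-fold difference in the fit, and 3 of the 23 and 2 of the 31 tested ribosomal transcripts were lower at an unadjusted p below 0.05 (3.37% of all tested). Histones had a median of -0.37 over 11 transcripts, 6 of them detected on all arrays, and the linker histone hon101, one of the highest signals, differed by 0.03 (SE 0.17), and by -0.043 without the Aa array of slide 1.

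Glutathione transferases, which conjugate toxins and reactive compounds, were lower in 4 and higher in 1 of 32 transcripts at an unadjusted p below 0.05 (3.37% and 4.28% of all tested), with a median of -0.21. The transcript gst12 (GRMZM2G096269) had levels of -4.67, -5.45 and -4.36 in Bio and -3.61, -3.66 and -4.03 in Aa, at -1.06 (SE 0.28). For gst11 the levels were -1.89, -3.38 and -1.79 in Bio and -1.05, -1.26 and -1.29 in Aa, at -1.15 (SE 0.40). The arrays of both transcripts did not overlap between the treatments. Heat shock proteins, chaperones that respond to stress, had a median of 0.51 over 15 transcripts, but with slide medians of 0.40, 0.44 and -0.27. The chaperone hsp101 had levels of 0.42, 0.10 and -0.74 in Bio and -1.58, -2.07 and -0.69 in Aa, at 1.38 (SE 0.85). Pathogenesis-related proteins had slide medians of -0.76, 0.76 and -0.43, so that their slides stood on both sides of 0.

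Cell wall and hormone lists lay near the median of all transcripts. The medians were 0.14 for 23 transcripts of phenylpropanoid and lignin synthesis, 0.03 for 16 expansins, -0.19 for 17 cellulose synthases, 0.05 for 32 transcripts of cytokinin metabolism and response and 0.24 for 9 of gibberellin metabolism and response. At an unadjusted p below 0.05 the lists of lignin, expansins and gibberellin had 0 higher and 0 lower, that of cellulose synthases had 1 and 1 and that of cytokinin 2 and 1 (4.28% and 3.37% of all tested). The cytokinin oxidase cko2, which degrades the hormone, had levels of -0.45, -1.45 and -1.68 in Bio-treated roots, against -1.68, -3.24 and -2.25 in Aa-treated roots, at 1.20. Its lowest Bio array and highest Aa array were equal within rounding, and the Bio array was higher on every slide. A LOG transcript (GRMZM2G155680), an enzyme that activates cytokinins, differed by 1.03 (SE 0.31), and a CLE peptide precursor (GRMZM2G165836), a signal in meristems, had levels of -4.22, -5.19 and -3.87 in Bio and -3.31, -3.52 and -3.22 in Aa, at -1.08 (SE 0.27). Seed storage proteins, the markers of seed tissue, had a median of 0.26 over 41 transcripts but of 0.01 over the 13 well above background on all 6 arrays. The globulin glb3, at -1.64 (SE 0.39), had -2.77, -2.07 and -0.85 in Bio and -0.82, 0.33 and -0.30 in Aa.

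**Figure D5:**
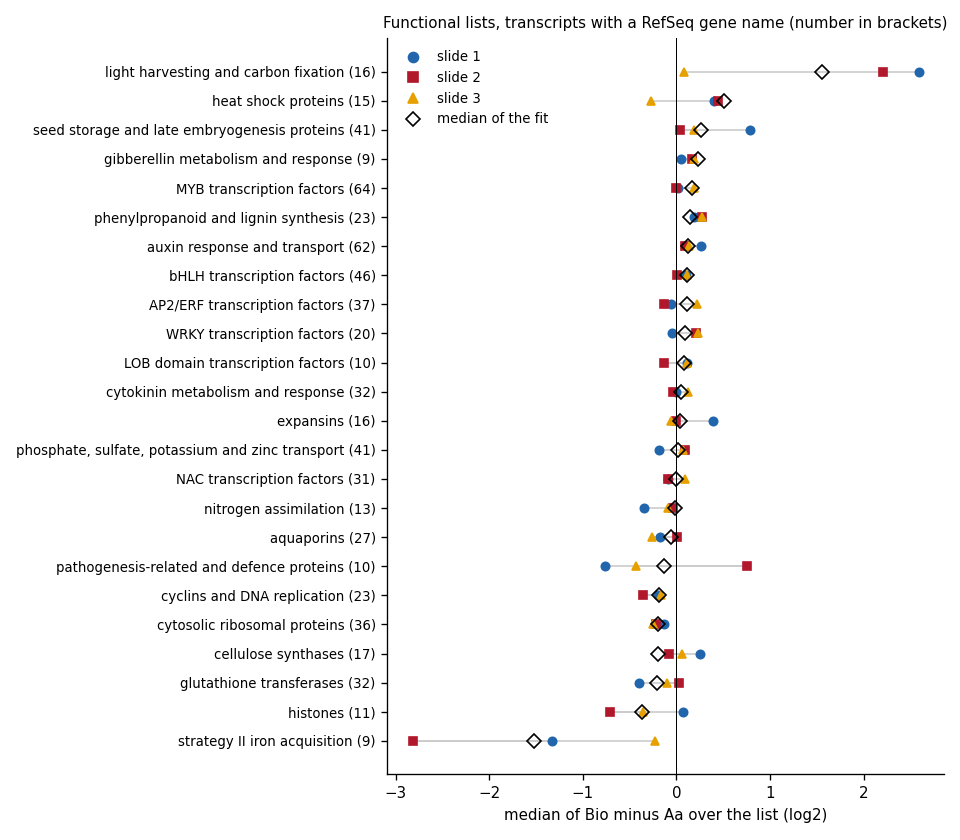
Median difference Bio minus Aa (log2) of 24 functional lists on each of the 3 slides and in the fit, over transcripts with a RefSeq gene name, with the number of transcripts on the array in brackets. The list of light harvesting and carbon fixation (1.56) and that of iron acquisition (-1.52) lie outermost, and both have their smallest difference on slide 3.

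Few transcripts were detected in Bio but not in Aa, or the reverse. The N arrays were not part of this rule. On all 3 Bio arrays but on none of the Aa arrays 6 transcripts were well above background (0.0152% of the array), and on all 3 Aa arrays but none of the Bio arrays 67 (0.17%). The higher detection limit of the Bio array on slide 1 runs in the direction of this imbalance, and its part was not tested. For these transcripts a lower bound of the fold was taken from the mean of the brighter treatment and, on each array of the other, the higher of the lowest signal well above background and the probe's own signal. Besides lhcb5, a plastoquinol-plastocyanin reductase (GRMZM2G164558), a part of photosynthetic electron transport, was detected on the Bio but not on the Aa arrays. It was at least 3.01-fold higher, with levels of -4.20, -3.51 and -5.42 in Bio and -7.55, -5.84 and -5.70 in Aa. It was also well above background on all 3 N arrays. A flavin-containing monooxygenase (GRMZM2G108637), of a family that includes the auxin-synthesizing YUCCA enzymes, was likewise detected in Bio but not in Aa, and on 1 N array. It was at least 2.61-fold higher, with levels of -4.40, -5.42 and -4.91 in Bio and -6.50, -6.57 and -6.34 in Aa. On the Aa but not on the Bio arrays a galactosyltransferase (AC186147.3_FGT008) was detected, at least 2.18-fold lower in Bio. Its levels were -6.66, -8.01 and -7.38 in Bio and -4.82, -4.04 and -5.0 in Aa. The same was found for a cytochrome P450 (GRMZM2G031909), at least 1.81-fold lower, for which normexp correction gave a difference of 0.023. For CNR5 and SECY, with bounds of 1.6 and 1.12, the probe's own signal on slide 1 was higher in Bio than in Aa, by 0.81 and 0.43.

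The reference transcript of the study's qRT-PCR, GRMZM2G027378, had levels of 5.64, 5.74 and 5.69 in Bio-treated roots and 5.58, 5.76 and 5.83 in Aa-treated roots. Its slide differences were 0.07, -0.01 and -0.14, with 5 of the 6 spots marked as outliers and therefore no test.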

How the data were processed

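RNA of maize roots was labelled with Cy3 and hybridized on one-colour Agilent arrays with 1 probe per transcript. The authors extracted the intensity of each spot with Agilent Feature Extraction 10.5.1.1. Per the file headers, the deposited intensity was corrected for trends across the array and for background and was not scaled between arrays. No spot was saturated. Outlier spots marked by the scanner software, for non-uniformity or within the population (1640 to 2114 on the Bio arrays and 2036 to 2487 on the Aa arrays) were missing in the tests, but were kept in levels, list sums and slide differences. A level is the log2 intensity minus the log2 of the 75th percentile of the array, which lay between 617 and 648 intensity units for Bio and between 660 and 803 for Aa. The precision is limited by the number of arrays, 3 per treatment.

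Bio vs. Aa was tested with limma 3.58.1 in R 4.3.3 (lmFit and eBayes without trend or robust option, Benjamini-Hochberg adjustment) on all 9 arrays in 1 fit, with the slide as a block. Slide and replicate number coincide. Over 26456 transcripts, deviations from the treatment means of same-numbered Bio and Aa arrays correlated with r = 0.25, 0.15 and 0.45, and the numbers were taken to pair the arrays, since all 3 exceeded 0.1 and each pair shared a slide. Of the 6 pairs with different numbers, Bio 2 with Aa 1 (0.28) and Bio 3 with Aa 2 (0.14) also exceeded it. The script was tested on simulated data.

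Of the transcripts, 2640 have a name in the RefSeq gene table of a later maize assembly and 976 a description in the study's tables, or 3469 together. Functional lists were matched by keyword to these names and descriptions and described by counts and medians without a test. The members, lists and tests were chosen with earlier results of these data known. Transcripts were named by rule. The first rule took the 15 largest positive and negative differences among annotated transcripts that were unmarked and well above background on all 6 arrays. These also had an unadjusted p below 0.05 and the same sign on every slide. Up to 6 annotated ones detected in Bio but not in Aa, or the reverse, were named in each direction. Of each list up to 4 largest differences and 2 highest signals were named, and most of those the study names for Bio vs. Aa. Study table members of the lists for iron acquisition, photosynthesis and peptide transport, yellow stripe-like and antenna transcripts beyond these limits, and rbcS were added after their values were seen.

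Alternatives were quantile normalization, normexp background correction with an offset of 50, another percentile, a filter on dim probes, marked spots kept and a variance trend. Others were fewer arrays, no block, the authors' scaled values, a t-test, other thresholds and single arrays or slides left out. Under normexp correction alone, the median of all transcripts, 0.16 in the fit, was subtracted from the differences. The unadjusted p were those before this subtraction. The t-test took p from the t distribution with Benjamini-Hochberg adjustment, where the study names permutation and an adjusted Bonferroni correction.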

Additional observations from a re-analysis of the deposited data

How the results depend on the processing

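Limma called 0 transcripts in Bio vs. Aa under every alternative run. A t-test in place of limma called 0 after Benjamini-Hochberg adjustment and 59 with an unadjusted p limited to 0.01 and a 2-fold change. It was not the permutation test of the study. The limma numbers at an unadjusted p below 0.05 were 1651 higher and 1303 lower in Bio. They were 917 and 614 by the t-test and 64 and 49 after normexp correction. Quantile normalization gave 1371 and 1797, and the fit with no replicate block 1206 and 690. With single arrays left out they ranged between 929 and 2028 and between 729 and 1660, lowest without Aa replicate 2. With slides 1, 2 and 3 left out whole, an alternative chosen after seeing the data, they were 1029, 1063 and 1489 higher and 1003, 671 and 1164 lower. Transcripts at least 2-fold apart on every slide, 87 higher and 42 lower, were 34 and 62 after quantile normalization, 0 and 14 after normexp correction and 19 and 16 among transcripts well above background on all 6 arrays. Without slide 1, 2 or 3, they were 239, 448 and 789 higher and 164, 159 and 429 lower, since fewer slides had to meet the criterion, and the same numbers came with single arrays left out. The photosynthesis median of 1.56 was 0.20 after normexp correction and lay between 1.03 and 2.23 with arrays or slides left out. The iron acquisition median of -1.52 was -0.71 after normexp correction and lay between -2.21 and -0.49 with arrays or slides left out. A block by replicate number gave the same fit as the slide. Of 2486 values under alternatives 78 moved, by over 1.5 times for counts or by over 1 SD between slides for list medians. The 1907 values of named transcripts among them could not count as moved, since only their sign and adjusted p were followed. The limit for list medians was wide, so that -0.49 for iron acquisition did not count as moved. The share of moved values is therefore no measure of stability. Of 97 named transcripts with a test 6 turned sign in at least 1 alternative, in 16 of 1907 values. Under normexp correction, the cytochrome P450 GRMZM2G031909 (-1.40) had 0.023, hon101 (0.03) had -0.24, gln4 (0.18) had -0.069 and ysl12 (0.07) had -0.13. These values are relative to the median of all transcripts. The subtracted median of 0.16 exceeded the size of the values of gln4 and ysl12, so that their turn of sign came with the subtraction. With single arrays left out, NIR (-0.62) ranged between -0.88 and 0.13, ysl11 (-0.21) between -0.46 and 0.012, ysl12 between -0.21 and 0.30, hon101 between -0.043 and 0.15 and gln4 between -0.044 and 0.38. NIR turned sign without Bio replicate 1 and ysl11 without Bio replicate 2. Without the whole of slide 2, ysl11 had 0.050, ysl12 -0.18 and gln4 -0.049, and without slide 1 hon101 had -0.00405. The causes were not tested.

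The 30 largest differences kept their direction in every alternative, with an unadjusted p below 0.05 in 15 under normexp correction and in 6 by the t-test. They had been chosen for their size and for the same sign on every slide. Their direction under most alternatives was thus largely fixed in advance and is no measure of stability. Probes near background carry little information on differences, and on the Bio array of slide 1 the detection limit was about 1 log2 unit higher than on the other Bio and Aa arrays.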

Other observations

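Some of the largest differences between Bio and Aa belonged to transcripts without a name or description. GRMZM2G018627_T01 had levels of 4.38, 2.70 and 1.55 in Bio-treated roots, against -1.96, -2.60 and 0.97 in Aa-treated roots, with a log2 fold change of 4.07 (SE 1.18), and GRMZM2G016677_T01 had 1.90, 0.77 and 0.12 in Bio and -2.51, -1.36 and -0.19 in Aa, at 2.29 (SE 0.71). Both sets of Bio arrays lay above the Aa arrays, and both differences were smallest on slide 3, at 0.58 and 0.31. In the other direction, GRMZM5G857005_T01 differed by -2.43 and GRMZM2G075042_T01 by -2.01, with slide 3 at -0.40 and -1.34.

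Single members of lists with medians near 0 also stood apart, although none had an adjusted p of limma below 0.650. The ethylene response factor family member EREB68 had levels of -1.81, -4.08 and -2.99 in Bio and -4.35, -3.73 and -5.45 in Aa, at 1.55 (SE 0.68), with the Bio array lower on slide 2. The bHLH factor bHLH7 had 1.32, 0.06 and -0.73 in Bio and -1.28, -1.81 and -0.18 in Aa, at 1.31 (SE 0.74). A transcript named Laccase-17 (GRMZM2G305526), of a family of enzymes that polymerize lignin, had 2.07, -0.05 and -0.90 in Bio and 0.42, -1.79 and -0.98 in Aa, at 1.15 (SE 0.58), whereas another of this name (GRMZM2G072808) differed by -0.93 (SE 0.42).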
